A study of Mus musculus with 14 samples.

Results

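Genes of the mitotic spindle, the kinetochore and their regulators were examined in liver sinusoidal endothelial cells (LSECs) of mice after a single dose of carbon tetrachloride (CCl4), a solvent that injures hepatocytes. The list holds 46 genes, chosen by name for their role in cell division, out of 54524 genes in the count table. All 46 were found in the annotation (GENCODE vM21, GRCm38), and all 46 passed the filter on low counts, which was set over all groups together. They are described by role: 5 genes of the spindle assembly checkpoint, 7 mitotic kinases and regulators of CDK1, 4 genes of the chromosomal passenger complex, 7 of the centromere and outer kinetochore, 6 spindle kinesins, 5 microtubule-associated proteins of the spindle, 3 genes of cytokinesis, 3 regulators of mitotic protein degradation and 6 genes of chromosome structure.

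The cells came from male Balb/c mice, which the labels give as 10 to 12 weeks old, while the methods of the study give a somewhat older range. Healthy mice (n = 4) received no injection, and the other mice were killed 1 day (n = 2), 3 days (n = 4) or 7 days (n = 4) after one intraperitoneal dose of 0.5 µL CCl4 per g of body weight in mineral oil. A mineral oil control was not used, so that the effect of CCl4 and that of its vehicle cannot be told apart in any comparison with healthy mice. At day 1, 2 further samples were left out by the authors for low RNA integrity. Livers were perfused and LSECs sorted as CD32 positive and F4/80 negative cells, also negative for autofluorescence and propidium iodide, and by the methods of the study for CD45. Fcgr2b, which encodes the CD32b form of the sorted protein, was at 2840 CPM (counts per 1000000 counts, after scaling) in healthy LSECs and 1578 at day 3 (edgeR, adjusted p = 0.024). Each sample is a different mouse.

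Total counts ranged from 46401496 to 103912264 per sample, which gave each of the 46 genes at least 10 counts in every mouse. Markers of LSECs and endothelium (12 genes, Stab2, Clec4g and Lyve1 among them) were present in all groups, with a summed level of 18080 to 22460 CPM in healthy mice, while day 1 mice had 14130 to 16870, day 3 mice 11840 to 15620 and day 7 mice 11130 to 15820. Markers of other liver cells moved as well, more in some lists than in others. Kupffer cell and macrophage markers (10 genes) had median log2 fold changes against healthy of 0.10, -0.06 and 0.03 at days 1, 3 and 7. For lymphocyte markers (10 genes) these were -0.95, 0.11 and 0.05. Ptprc, the gene of CD45, was at 36.9 to 109.6 CPM in healthy mice, 128.1 and 177.4 at day 1 and 134 to 153.9 at day 7. At day 3 it had 269.6 and 182.3 CPM in replicates 1 and 2, and 63.95 and 46.67 in replicates 3 and 4. The summed level of 10 monocyte and neutrophil genes was 43.8 to 241.5 CPM in healthy mice and 3056 to 7029 at day 1, and at day 3 it was 4937 and 2740 in replicates 1 and 2 but 176 and 129.3 in replicates 3 and 4. Stellate cell and fibroblast markers (11 genes) had 153.4 to 285.6 CPM in healthy mice, and the day 3 mice had 693.2 to 2041 and the day 7 mice 396 to 5902. Hepatocyte markers (10 genes) were at 9085 CPM in healthy replicate 4 and at 213.5 to 405.4 in the other healthy mice, and had 45.57 and 172 CPM in the day 1 mice, 970.6 to 3341 in the day 3 mice and 866.1 to 6890 in the day 7 mice. Cholangiocyte markers (5 genes) had 79.18 to 193.3 CPM in healthy mice, 229.3 and 301.5 in the day 1 mice, 321.2 to 1178 in the day 3 mice and 598 to 5255 in the day 7 mice. The median log2 fold change of these 5 genes against healthy was 0.13 at day 3 and 0.72 at day 7. Their highest change was 2.37 at day 3 and 4.19 at day 7, so that the sums do not stand for most of these genes. Mitochondrial genes took 3.04% to 3.65% of the counts in healthy mice and 5.28% to 9.87% in day 7 mice. Genes with a count numbered 34678 and 34768 in day 3 replicates 1 and 2, against 28203 and 22986 in replicates 3 and 4. No gene of these lists was at 0 in a whole group, and the part of these markers and of library quality in the results was not tested. In such bulk samples, more dividing cells and more mitotic RNA per cell cannot be told apart.

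During mitosis, microtubules of the spindle attach to kinetochores, protein assemblies built on centromeric chromatin, and the spindle assembly checkpoint holds back chromosome separation until every kinetochore is attached. The anaphase-promoting complex (APC/C) then marks cyclin B and securin for degradation, the chromosomes part, and the central spindle and the contractile ring divide the cell. The messenger RNAs for most of these proteins are low in resting cells and accumulate late in the cell cycle, which is why genes such as Mki67 serve as markers of proliferation. Most LSECs of a healthy adult liver are quiescent.

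As a single measure, the mean log2 CPM of the 46 genes was taken in each mouse. It was 3.29, 3.14, 3.73 and 2.51 in the healthy mice, 2.42 and 1.73 at day 1, 4.51, 3.64, 5.21 and 5.20 at day 3, and 4.33, 4.39, 3.91 and 3.24 at day 7. Healthy mice averaged 3.17 ± 0.50 (SD), the pair of day 1 mice 2.07 ± 0.49, the day 3 mice 4.64 ± 0.74 and the day 7 mice 3.97 ± 0.53 (n = 4 except at day 1). Both day 1 mice were below all healthy mice, 3 of the 4 day 3 mice were above all healthy mice, and 3 of the 4 day 7 mice were as well. The lowest day 3 mouse (replicate 2) and the lowest day 7 mouse (replicate 4) lay within the healthy range. The median log2 CPM over all 26626 genes tested was between 0.75 and 0.97 in the healthy and day 1 mice and between 1.11 and 1.49 in the day 3 and day 7 mice, so that it was not level across the groups. As the genes were chosen with earlier results of these data known, the score is a description and carries no p-value.

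**Figure D1:**
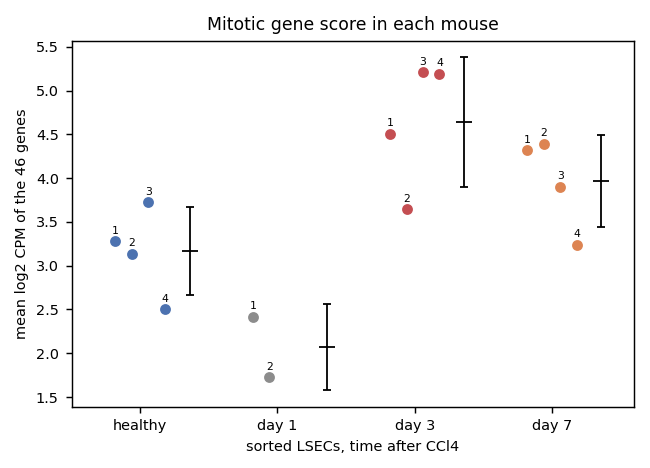
Mean log2 CPM of the 46 mitotic genes (vertical axis) in each mouse, by time after CCl4 (horizontal axis), with points numbered by replicate and black bars giving the group mean ± SD. The score is lowest in the 2 mice at day 1 and highest at day 3, and the day 3 mice spread from 3.64 to 5.21.

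Gene by gene, the same course was found in nearly the whole list. The mean CPM was highest at day 3 in 44 of the 46 genes and lowest at day 1 in 43, and 41 followed the order day 1, healthy, day 7, day 3. Their median ratio of group means over healthy LSECs was 3.19 at day 3 and 1.90 at day 7. Per kilobase of exon, the highest levels in healthy LSECs were those of Cks2 (37.0 CPM per kb), Cenpa (19.2), Smc4 (18.8), Bub3 (12.7) and Smc2 (10.2), and the lowest those of Cdc25c (0.237) and Nek2 (0.320). Cks2, Cenpa, Smc4, Bub3 and Smc2 were thus well expressed without injury. At day 3, Cks2 and Smc2 rose (edgeR, adjusted p = 0.0117 and 0.00807), Smc4 and Bub3 did not pass the test, and Cenpa fell.

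**Figure D2:**
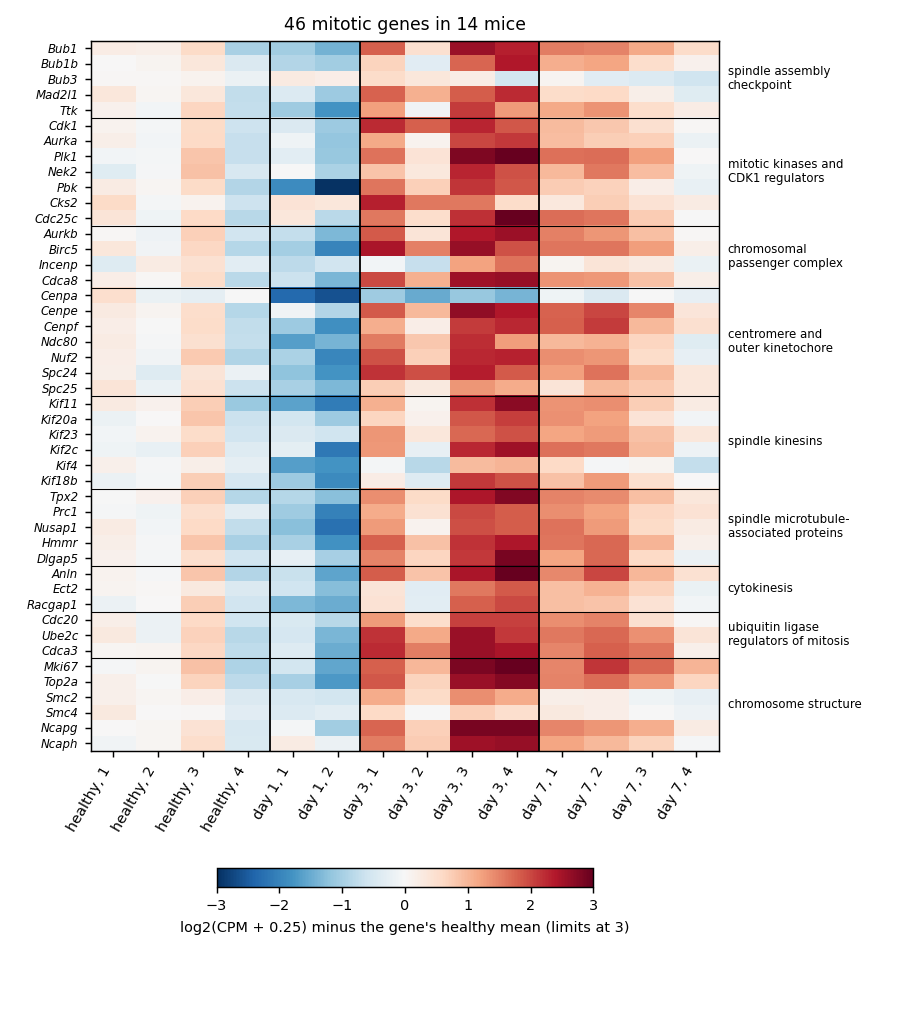
Heat map of the 46 genes (rows, grouped by role) in the 14 mice (columns), coloured by log2(CPM + 0.25) minus the mean of the healthy mice for that gene, with colours limited at 3 either way. Day 1 columns are mostly blue and day 3 columns mostly red, with replicates 3 and 4 the darkest, while Cenpa stays blue at days 1 and 3.

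The mice of a group kept nearly the same order from gene to gene. Healthy replicate 3 had the highest CPM of its group in 42 of the 46 genes and healthy replicate 4 the lowest in 43, although these mice were highest or lowest in only 23.7% and 30.7% of all genes tested. At day 3, replicate 2 was lowest in 43 genes (20.3% of all genes tested), and replicate 4 or replicate 3 was highest in 25 and 18. Day 7 replicate 4 was lowest in 45 (18.4% of all genes tested). Within healthy and within day 7 mice, the SD of log2 CPM had a median over the 46 genes of 0.56 and 0.55, against 0.42 and 0.43 over all genes tested, and at day 3 it was 0.89 against 0.79. The 46 genes are therefore not independent readings of a group. Healthy replicate 4, which was lowest, had the high hepatocyte markers given above, and the day 3 mice with high monocyte and neutrophil markers (replicates 1 and 2) were those with the lower mitotic scores.

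At day 3, the question was which mitotic genes rose over healthy LSECs. Of the 46 genes, 28 rose and 1, Cenpa, fell (edgeR's quasi-likelihood test, adjusted p under 0.05, called from here on), while 4.62% of all genes tested were called higher and 2.58% lower. The fitted change was above 0 in 45 of the 46, against 59% of all genes tested, and its median was 1.67 on the log2 scale, against 0.18 over all genes tested. All 4 day 3 mice lay above all 4 healthy mice in 17 of the 46 genes, as they did in 7.53% of all genes tested. The largest fitted rises were those of Plk1 (2.38), Ncapg (2.31), Anln (2.25), Cdca3 (2.23) and Mki67 (2.23), all called. Day 3 replicates 1 and 2 had high monocyte and neutrophil markers and also the lower mitotic scores of their group. Without them, a choice made after these values were seen, 42 genes were called higher and 1 lower. In that fit 5.37% of all genes tested were called higher and 4.36% lower. Leaving out the mice with lower scores raises the fitted changes by itself, and the part of the markers was not tested. The count of 28 depends on single mice. It was 14 without healthy replicate 1 (2.41% of all genes tested) and 14 without healthy replicate 2 (2.38%). It was 12 without healthy replicate 4 (2.57%) and 15 without day 3 replicate 3 (3.39%). In these fits the median change of the list was 1.78, 1.665, 1.38 and 1.475, in that order. The count was 12 with the healthy and day 3 mice alone in the model (2.93% of all genes tested). With limma-voom it was 17, where 15.9% of all genes tested were called higher, and the median was 1.03. With DESeq2 it was 37, where 5.2% of all genes that it tested were called higher, and the median was 1.68.

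**Figure D3:**
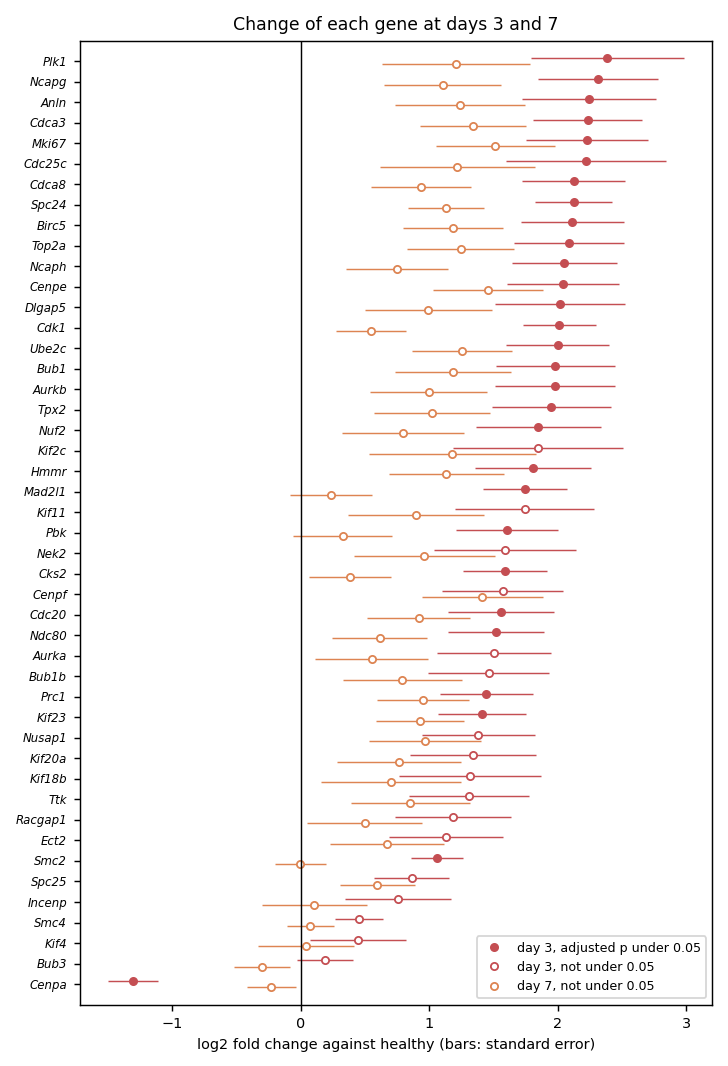
Fitted log2 fold change against healthy LSECs (horizontal axis, bars give the standard error) of each of the 46 genes (vertical axis), at day 3 in red and day 7 in orange, with filled points where the adjusted p was under 0.05. All genes but Cenpa lie right of 0 at day 3, and no point is filled at day 7.

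Many mitotic genes start from promoters with 2 known elements. The cell cycle genes homology region (CHR) is bound by the DREAM complex, which holds such genes down in resting cells, and by the B-MYB and FOXM1 complexes that activate them in G2, and CCAAT boxes are bound by NF-Y. These letters were searched in promoter windows from RefSeq (GRCm38.p6, the C57BL/6J genome, while the mice were Balb/c) of 250 bases before to 50 bases after the start. The CHR was searched as TTTGAA and TTCGAA and the CCAAT box as CCAAT, on both strands, so that TTCAAA and ATTGG count as well, and neighbouring matches may overlap. Windows were found for 37 of the 46 genes (40 windows), and Pbk, Cdc25c, Aurkb, Incenp, Spc24, Kif20a, Tpx2, Dlgap5 and Smc4 had none. A CHR was present in 80.0% of the 40 windows and in 19.2% of all 32851 windows, and a CCAAT box in 80.0% and 37.4%. Both were present in 72.5% of the windows of the mitotic genes and in 7.52% of all windows. A CHR that began within 50 bases of the start was found in 72.5% against 5.31%, and 2 or more CCAAT boxes in 55.0% against 11.7%. Of 36 genes of DNA replication, 30 had windows (35 windows), where a CHR was found in 17.1% and a CCAAT box in 62.9%. Neither element was present in the windows of Birc5, Mad2l1, Ncaph, Nuf2 and Nusap1.

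Of the genes given mouse by mouse by the naming rule, 8 hold both elements. The promoters of the 6 with the highest mean CPM are printed here (Kif23 and Racgap1 are left out), shown from 250 bases before to 30 bases after the start, so that promoters of genes that rose (Cdk1, Mki67, Ube2c, Smc2), of Bub3, which did not pass the test, and of Cenpa, which fell, can be read side by side. Capitals mark the CHR (TTTGAA or TTCAAA) and the CCAAT boxes (CCAAT or ATTGG). In order they are chr10:69352883-69353162 (minus strand), chr7:135716350-135716629 (minus), chr2:164769679-164769958 (plus), chr4:52438971-52439250 (plus), chr7:131560120-131560399 (plus) and chr5:30666636-30666915 (plus).
Cdk1: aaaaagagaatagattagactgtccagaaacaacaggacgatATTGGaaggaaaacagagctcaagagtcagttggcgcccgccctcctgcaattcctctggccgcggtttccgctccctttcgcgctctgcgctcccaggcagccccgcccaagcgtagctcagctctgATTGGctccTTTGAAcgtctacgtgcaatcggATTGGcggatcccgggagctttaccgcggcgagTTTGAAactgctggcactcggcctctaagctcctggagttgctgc
Mki67: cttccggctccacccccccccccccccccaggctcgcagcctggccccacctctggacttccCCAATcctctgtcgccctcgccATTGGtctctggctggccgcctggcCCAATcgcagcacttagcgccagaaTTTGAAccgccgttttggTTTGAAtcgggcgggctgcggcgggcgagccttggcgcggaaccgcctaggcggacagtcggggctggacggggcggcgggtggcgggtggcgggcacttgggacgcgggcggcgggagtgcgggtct
Ube2c: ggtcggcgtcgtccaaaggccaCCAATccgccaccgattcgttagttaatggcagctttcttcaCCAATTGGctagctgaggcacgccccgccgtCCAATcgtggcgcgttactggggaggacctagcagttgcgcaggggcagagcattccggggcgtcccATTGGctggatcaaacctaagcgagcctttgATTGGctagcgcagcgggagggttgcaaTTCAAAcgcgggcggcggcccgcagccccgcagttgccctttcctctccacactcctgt
Smc2: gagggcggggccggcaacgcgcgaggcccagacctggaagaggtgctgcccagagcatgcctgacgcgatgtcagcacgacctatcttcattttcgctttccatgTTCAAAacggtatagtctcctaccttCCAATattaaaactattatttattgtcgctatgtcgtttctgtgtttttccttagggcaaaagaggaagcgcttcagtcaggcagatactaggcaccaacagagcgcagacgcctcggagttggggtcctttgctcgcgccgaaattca
Bub3: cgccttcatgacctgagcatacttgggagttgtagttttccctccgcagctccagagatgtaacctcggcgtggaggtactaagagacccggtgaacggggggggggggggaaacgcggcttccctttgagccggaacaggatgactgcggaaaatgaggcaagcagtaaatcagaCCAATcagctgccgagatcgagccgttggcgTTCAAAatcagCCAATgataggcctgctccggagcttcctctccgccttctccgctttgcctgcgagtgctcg
Cenpa: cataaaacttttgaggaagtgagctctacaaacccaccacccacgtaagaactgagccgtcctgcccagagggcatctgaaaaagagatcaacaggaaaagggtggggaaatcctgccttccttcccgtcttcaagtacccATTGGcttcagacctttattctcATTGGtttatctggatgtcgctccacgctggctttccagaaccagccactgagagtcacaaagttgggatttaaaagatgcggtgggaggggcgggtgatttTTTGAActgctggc

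In Cdk1, CHR letters began at positions -71 and -15 from the start and ATTGG at -208, -80 and -48. Mki67 had CHR letters at -116 and -98 and 3 CCAAT boxes upstream of them (-188, -166 and -141). Ube2c had 1 CHR at -29 and 6 CCAAT boxes, 2 of which overlap on opposite strands at -186 and -183. Smc2 had a CHR at -145, a second at 27 that the printed stretch cuts off, and a CCAAT box at -119. Bub3, with a CHR at -43 between CCAAT boxes at -74 and -32, and Cenpa, with CCAAT boxes at -109 and -86 and a CHR after the start (17), thus carry the same letters as the genes that rose. These matches are descriptions of the sequence, and the binding of factors was not measured.

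Among the kinases, all 7 genes had fitted changes above 1.5 and 5 were called (Cdk1, Plk1, Pbk, Cks2 and Cdc25c). Cdk1, the kinase that drives entry into mitosis, was at 29.95, 26.7, 41.5 and 17.9 CPM in the healthy mice, 20.3 and 12.9 at day 1, 132, 97.45, 137 and 102 at day 3 and 54.0, 48.7, 38.7 and 28.4 at day 7. All day 3 mice were above every other mouse, and the day 7 mice overlapped the healthy range. The rise at day 3 was called (log2 fold change 2.01 ± 0.28, adjusted p = 0.002, where ± after a log2 fold change is its standard error). Plk1, which acts on centrosomes, kinetochores and cytokinesis, went from 4.49 ± 2.19 CPM (SD, n = 4) in healthy LSECs to 23.5 ± 17.5 (n = 4) at day 3, with values from 5.597 in replicate 2 to 44.7 in replicate 4. Cks2, a small subunit that binds CDK1, was at 25.6 ± 8.51 and 77.15 ± 36.25 CPM, and was highest in replicate 1 instead (124.6). For Aurka, the centrosomal Aurora kinase, and Nek2 the adjusted p was 0.0583 and 0.105. Plk1, Nek2 and Cdc25c share exon sequence with genes on the opposite strand (Gm44985, Gm38037 and Gm3550), as do Cdca8 (9930104L06Rik), Ncapg (Lcorl) and Kif20a (Cdc23). The use of strand in counting is not stated, so that the counts of such genes are uncertain.

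Of the 5 genes of the spindle assembly checkpoint, Bub1 and Mad2l1 were called higher. Mad2l1, the checkpoint protein that inhibits CDC20, was at 13.85, 11.2, 13.8 and 6.42 CPM in the healthy mice, 8.05 and 4.92 at day 1, 37.6, 22.95, 38.9 and 52.5 at day 3 and 16.0, 16.7, 12.3 and 8.36 at day 7. Every day 3 mouse was above every other mouse (log2 fold change 1.75 ± 0.33, adjusted p = 0.00765 for day 3 against healthy). Bub3, which brings BUB1 and BUBR1 to the kinetochore, was at 91.2, 90.2, 95.0 and 78.95 CPM in the healthy mice, 107 and 103 at day 1, 129.8, 112, 104 and 60.1 at day 3 and 94.2, 69.8, 66.4 and 58.0 at day 7. It overlapped the healthy range at days 3 and 7 and was the only checkpoint gene above all healthy mice at day 1, with no change called (log2 fold change 0.19 ± 0.22, adjusted p = 0.662 for day 3). Its promoter holds both elements. Without day 3 replicate 1 the fitted change of Bub3 was -0.03. Bub1b, the gene of BUBR1, and Ttk, the kinase MPS1, had fitted changes of 1.46 and 1.31 that were not called.

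In the chromosomal passenger complex, which corrects faulty attachments, Aurkb, Birc5 and Cdca8 were called higher at day 3 and Incenp was not. Aurkb, the kinase of the complex, was at 5.725 ± 2.32 CPM in healthy LSECs and 22.6 ± 11.7 at day 3, Birc5 (survivin) at 14 ± 5.65 and 60.5 ± 20.1, and Cdca8 (borealin) at 9.21 ± 3.32 and 40.1 ± 16.9 (SD, n = 4 each). Incenp, the scaffold, was at 21.3, 32.8, 38.55 and 22.1 CPM in the healthy mice, 16.1 and 18.5 at day 1, 26.2, 17.0, 64.1 and 86.9 at day 3 and 29.6, 36.6, 33.4 and 24.0 at day 7. Day 3 replicates 3 and 4 were above all healthy mice and replicate 2 below all of them (log2 fold change 0.76 ± 0.41, adjusted p = 0.306). With limma-voom, which weights the mice by their quality, the fitted change of Incenp was -0.36. Without day 3 replicates 1 and 2, the mice with its lower day 3 values, it was 1.37 and was called.

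Of the 7 genes of the centromere and outer kinetochore, Cenpe, Ndc80, Nuf2 and Spc24 were called higher, Cenpf and Spc25 were not, and Cenpa was called lower. Spc24, a subunit of the NDC80 complex that holds microtubules, was at 4.97, 3.27, 5.79 and 3.87 CPM in the healthy mice, 1.75 and 1.08 at day 1, 20.5, 17.45, 23.5 and 16.4 at day 3 and 10.5, 14.1, 8.885 and 5.64 at day 7. The day 3 mice were above all others (log2 fold change 2.12 ± 0.30, adjusted p = 0.0022). Its partner Spc25 was at 12.3 ± 4.13 and 22.4 ± 6.82 CPM, with an adjusted p of 0.0945. Cenpe, the kinesin that moves chromosomes to the spindle equator, was at 11.3, 9.94, 13.71 and 5.06 CPM in the healthy mice, 8.67 and 4.975 at day 1, 34.2, 18.6, 60.9 and 50.7 at day 3 and 32.5, 38.6, 26.5 and 12.2 at day 7. The day 3 mice were above all healthy mice (log2 fold change 2.04 ± 0.43, adjusted p = 0.0144), but without healthy replicate 4 the adjusted p was 0.0529.

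The kinesins had the smallest share of calls of the 9 roles, with Kif23 alone called of 6, although all 6 had a fitted change above 0 and 5 an unadjusted p under 0.05 (14% of all genes tested were higher at that p). Kif23, a motor of the central spindle, was at 8.73, 10.0, 13.8 and 6.24 CPM in the healthy mice, 6.81 and 6.05 at day 1, 23.7, 11.9, 31.6 and 36.04 at day 3 and 21.6, 23.15, 17.4 and 11.8 at day 7. Day 3 replicates 1, 3 and 4 were above all healthy mice (log2 fold change 1.41 ± 0.34, adjusted p = 0.0257). Kif23 was no longer called without healthy replicate 1 (adjusted p = 0.0756), healthy replicate 2 (0.0669), healthy replicate 4 (0.104), day 3 replicate 1 (0.0558), day 3 replicate 3 (0.088) or day 3 replicate 4 (0.0582), nor in 4 other settings. Kif11, the motor that pushes the spindle poles apart, averaged 5.135 ± 2.41 CPM in healthy mice and 17.2 ± 12.0 in day 3 mice, with replicate 2 (4.92 CPM) inside the healthy range (adjusted p = 0.0685). Kif4, a chromosome-bound kinesin, was at 13.4 ± 1.92 CPM in healthy LSECs and 18.2 ± 9.70 at day 3. It overlaps Pdzd11 on the opposite strand and has a pseudogene, Kif4-ps, so that its counts are uncertain.

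Among the microtubule-associated proteins of the spindle, Tpx2, Prc1, Hmmr and Dlgap5 were called higher, and Nusap1 was not (adjusted p = 0.0762). Tpx2, which activates Aurora A and nucleates microtubules near chromosomes, was at 9.91, 10.9, 16.4 and 5.40 CPM in the healthy mice, 5.39 and 4.03 at day 1, 26.3, 14.8, 54.6 and 68.9 at day 3 and 28.3, 27.1, 18.8 and 12.6 at day 7. Day 3 replicates 1, 3 and 4 were above all healthy mice and replicate 2 was not (log2 fold change 1.95 ± 0.46, adjusted p = 0.0232). Its adjusted p was 0.0692 without healthy replicate 1, 0.0632 without healthy replicate 2, 0.0795 without healthy replicate 4 and 0.0675 without day 3 replicate 3. With limma-voom the log2 fold change was 0.96 (adjusted p = 0.0843), and the call was also lost with the healthy and day 3 mice alone in the model (0.0766) and with a replicate block (0.0579). Nusap1 shares exon sequence with Oip5 and Prc1 with Rccd1.

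Cytokinesis genes gave 1 call of 3, for Anln, the contractile ring protein anillin (7.23 ± 3.48 CPM in healthy LSECs and 34.3 ± 22.2 at day 3). Racgap1, the partner of KIF23 at the central spindle, was at 13.2, 15.04, 25.1 and 9.84 CPM in the healthy mice, 5.74 and 5.12 at day 1, 20.3, 12.0, 51.8 and 59.7 at day 3 and 28.0, 26.95, 20.2 and 14 at day 7. Its day 3 values fell into a low pair (replicates 1 and 2, within the healthy range) and a high pair (replicates 3 and 4), and no change was called (log2 fold change 1.19 ± 0.45, adjusted p = 0.135). It was called without day 3 replicate 2 (adjusted p = 0.046).

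All 3 regulators of mitotic protein degradation were called higher. Ube2c, the enzyme that hands ubiquitin to the APC/C, was at 19.1, 13.8, 25.5 and 8.69 CPM in the healthy mice, 10.9 and 5.88 at day 1, 70.3, 34.8, 94.3 and 69.1 at day 3 and 47.2, 52.3, 40.5 and 20.3 at day 7. The day 3 mice were above all healthy mice (log2 fold change 2.00 ± 0.40, adjusted p = 0.0104). Cdc20, the activator of the APC/C that the checkpoint holds back, was at 10.6 ± 3.79 CPM in healthy LSECs and 31.3 ± 13.98 at day 3, and Cdca3, which helps to degrade the mitosis inhibitor WEE1, at 4.70 ± 1.82 and 22.1 ± 6.399. Cdc20 shares exon sequence with Elovl1 on the opposite strand, and Ube2c with Tnnc2, which had 2 counts in all 14 mice together.

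Chromosome structure genes were called in 5 of 6 cases. Mki67, the gene of the Ki67 protein that coats mitotic chromosomes, was at 25.4, 27.6, 48.1 and 13.5 CPM in the healthy mice, 17.7 and 8.67 at day 1, 90.0, 51.8, 186 and 209 at day 3 and 71.8, 116, 86.65 and 52.6 at day 7. All day 3 and all day 7 mice were above all healthy mice (log2 fold change 2.23 ± 0.47, adjusted p = 0.0143 for day 3). With the healthy and day 3 mice alone in the model the adjusted p was 0.0516. Top2a, the topoisomerase that untangles sister chromatids, was at 26.8 ± 10.5 CPM in healthy LSECs and 114 ± 59.9 at day 3. Smc2, the core condensin subunit, was at 61.3, 57.7, 63.6 and 40.8 CPM in the healthy mice, 39.5 and 37.7 at day 1, 119, 81.9, 145 and 120.1 at day 3 and 62.4, 63.7, 50.5 and 46.7 at day 7. All day 3 mice were above every other mouse (log2 fold change 1.06 ± 0.20, adjusted p = 0.00807), with an adjusted p of 0.0576 without healthy replicate 4. Smc4, its partner in condensin, was at 118, 97.7, 99.6 and 76.5 CPM in the healthy mice, 73.2 and 77.4 at day 1, 147, 95.7, 158 and 137 at day 3 and 119, 111, 95.25 and 87.5 at day 7, with day 3 overlapping healthy (log2 fold change 0.46 ± 0.19, adjusted p = 0.165). The condensin I subunits Ncapg and Ncaph had fitted changes of 2.31 and 2.05, both called.

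**Figure D4:**
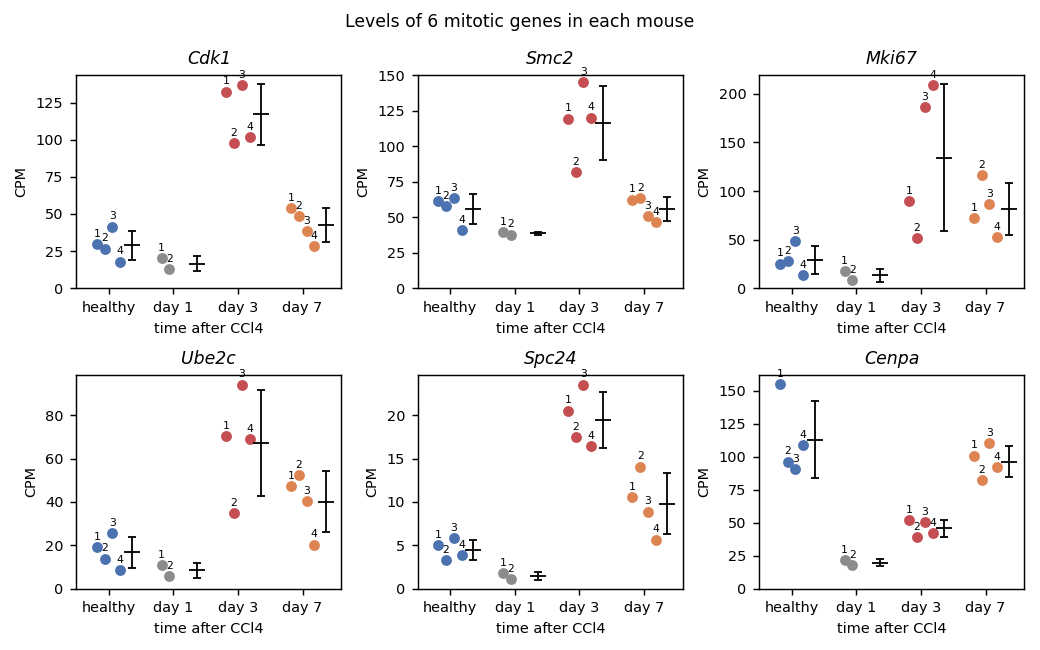
CPM (vertical axes, from 0) of 6 mitotic genes in each mouse by time after CCl4 (horizontal axes), with points numbered by replicate and black bars giving the group mean ± SD. Cdk1 and Smc2 are high at day 3 alone, Mki67 stays above all healthy mice at day 7, and Cenpa is low at days 1 and 3.

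Cenpa was the 1 gene of the list that fell at day 3. It encodes CENP-A, the histone H3 variant that marks centromeric chromatin and on which the kinetochore is built, and lies on chromosome 5 (30666777 to 30674830, plus strand, GRCm38). Its level was 155, 96.2, 90.8 and 109 CPM in the healthy mice, 21.7 and 17.65 at day 1, 52.1, 38.7, 50.2 and 42.0 at day 3 and 101, 81.9, 110.0 and 92.3 at day 7. No day 1 or day 3 mouse reached the lowest healthy mouse (all day 3 mice were below all healthy mice in 6.84% of all genes tested), the day 1 mice were below all day 3 mice, and at day 7 the values were back in or near the healthy range. The fall was called at day 1 (log2 fold change -2.52 ± 0.27, adjusted p = 0.000239) and at day 3 (log2 fold change -1.30 ± 0.19, adjusted p = 0.00268), and the return was called from day 1 to day 3 (log2 fold change 1.22 ± 0.25, adjusted p = 0.0211) and from day 3 to day 7 (log2 fold change 1.07 ± 0.19, adjusted p = 0.0172). At day 7 it did not pass the test against healthy (adjusted p = 0.523). The 2 falls were called in every alternative and without any 1 mouse, and the fitted change at day 3 then lay between -1.50 and -1.11. The rise from day 1 to day 3 was no longer called without day 1 replicate 1 (adjusted p = 0.214), day 1 replicate 2 (0.323) or day 3 replicate 3 (0.0569), or with these groups alone in the model (0.14). That from day 3 to day 7 was no longer called without day 7 replicate 3 (adjusted p = 0.0675) or with these groups alone in the model (0.0796). The exons of Cenpa merge to 5860 bases, and counts per gene do not show which of its transcripts was measured. Its promoter, printed with the others, holds both elements, with the CHR after the start.

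At day 1, the question was whether the mitotic genes had already moved. None was called higher, and 3 were called lower: Pbk, Cenpa and Spc24 (2.42% of all genes tested were called higher and 1.64% lower). The fitted change was above 0 in 3 of the 46, against 47.7% of all genes tested, with a median of -1.11 on the log2 scale, against -0.03 over all genes tested. Both day 1 mice were below all 4 healthy mice in 23 of the 46 genes, as they were in 17.9% of all genes tested, and above all of them in 1, Bub3, as they were in 20% of all genes tested. Pbk, a mitotic kinase also called TOPK, was at 11.3, 9.88, 14.4 and 5.09 CPM in the healthy mice, 2.38 and 1.00 at day 1, 29.6, 15.85, 43.0 and 35.25 at day 3 and 16.3, 15.5, 11.0 and 8.13 at day 7, so that both day 1 mice were below all others (log2 fold change -2.59 ± 0.54, adjusted p = 0.016). Spc24 gave a log2 fold change of -1.66 (adjusted p = 0.0283), which was no longer called without healthy replicate 1 (0.0621), healthy replicate 3 (0.0648), day 1 replicate 1 (0.181) or day 1 replicate 2 (0.278). Leaving out a day 1 mouse leaves 1 mouse whose spread is taken from the other groups. The median was then -1.54 without replicate 1 and -0.81 without replicate 2. Fewer genes were called lower in these fits, both in the list and among all genes. With other tools more genes passed, both in the list and among all genes. DESeq2 called 11 lower, as it did 3.53% of all genes that it tested, and limma-voom 14, as it did 6.73%. The day 1 mice had monocyte and neutrophil marker sums of 7029 CPM (replicate 1) and 3056 CPM (replicate 2), and replicate 1 was above replicate 2 in 43 of the 46 genes.

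From day 1 to day 3, 31 of the 46 genes rose and none fell (1.57% of all genes tested were called higher and 0.969% lower), with a median log2 fold change of 2.93, against 0.19 over all genes tested. All 7 genes of the centromere and outer kinetochore were among them, Cenpa included, and the largest fitted rises were those of Pbk (4.19), Kif11 (3.93) and Spc24 (3.79). This comparison rests on the 2 day 1 mice. Without day 1 replicate 1 or 2, the median log2 fold change was 3.35 or 2.495. Fewer genes were then called, both in the list and among all genes. The count was 19 without day 3 replicate 3 (0.831% of all genes tested) and 4 with these groups alone in the model (0.581%).

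At day 7, the question was how far the genes had returned. No gene of the list passed the test against healthy LSECs (edgeR, 2.19% of all genes tested were called higher and 0.992% lower), while 19 had an unadjusted p under 0.05, all of them higher (10.5% of all genes tested were higher at that p). DESeq2 called 8 of the 46 higher, as it did 3.78% of all genes that it tested. The fitted change was above 0 in 43 of the 46, against 50.7% of all genes tested, with a median of 0.92 (0.58 with limma-voom), against 0.02 over all genes tested. Mki67 was the only gene in which all 4 day 7 mice were above all healthy mice, as in 8.72% of all genes tested (log2 fold change 1.51 ± 0.46, adjusted p = 0.0892). For Spc24 and Cenpe, which had the smallest p-values, the fitted changes were 1.13 (adjusted p = 0.0551) and 1.46 (0.0789), with replicate 4 inside the healthy range in both. Without that mouse 1 gene was called, Spc24 (adjusted p = 0.0385), and 1.27% of all genes tested were called higher. The day 3 and day 7 comparisons use the same 4 healthy mice, so that they are not independent of each other.

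Set against day 3, 3 genes were lower at day 7 and 1 was higher (1.36% of all genes tested were called lower and 0.413% higher). The 3 were Mad2l1 (log2 fold change -1.51 ± 0.32, adjusted p = 0.0349), Cdk1 (log2 fold change -1.46 ± 0.28, adjusted p = 0.0206) and Smc2 (log2 fold change -1.06 ± 0.20, adjusted p = 0.0209), and the 1 was Cenpa. In these 3 and in Spc24, all day 7 mice were below all day 3 mice, as in 4.15% of all genes tested, and in Cenpa all day 7 mice were above all day 3 mice, as in 3.76%. Ratios of the fitted day 7 to day 3 levels ran from 0.351 for Mad2l1, 0.362 for Cdk1, 0.406 for Ncaph and 0.412 for Pbk to 0.756 for Kif4, 0.768 for Smc4, 0.830 for Spc25 and 0.896 for Cenpf, the large kinetochore protein of G2 and mitosis. Cenpf averaged 15.05 ± 5.29 CPM in healthy mice, 44.8 ± 25.4 in day 3 mice and 40.1 ± 19.3 in day 7 mice, with 50.05 and 62.0 CPM in day 7 replicates 1 and 2. Whether these ratios differ between genes was not tested. The calls depend on single mice: the count of lower genes was 0 without day 3 replicate 1, day 3 replicate 3, or day 7 replicate 1, 3 or 4. It was 1 without day 7 replicate 2. Of all genes tested, 0.0417% to 0.287% were called lower in the fits with a count of 0, and 0.409% in that with 1.

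Other genes of the cell cycle were read from the same fit, as lists chosen by function. Of 36 genes of replication licensing and S phase, 24 rose at day 3, with a median log2 fold change of 1.62 close to that of the mitotic genes. At day 7 their median was 0.05, and 19 of the 36 were called lower than at day 3 (median -1.59, against -0.77 for the mitotic genes). The latter median was -0.43 without day 3 replicate 3, -0.42 without day 3 replicate 4, -0.32 with limma-voom and -1.21 without day 3 replicates 1 and 2. Tk1 and Gins1 were among the 3 genes with the smallest p-values at day 3 (2.23 and 2.41 on the log2 scale). Pcna and Orc6 were at 136 and 29.5 CPM at day 7 against 255 and 59.3 in healthy LSECs, and neither change was called. Replication genes and mitotic genes thus stood alike at day 3 and apart at day 7 in their medians, a difference that was not tested.

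**Figure D5:**
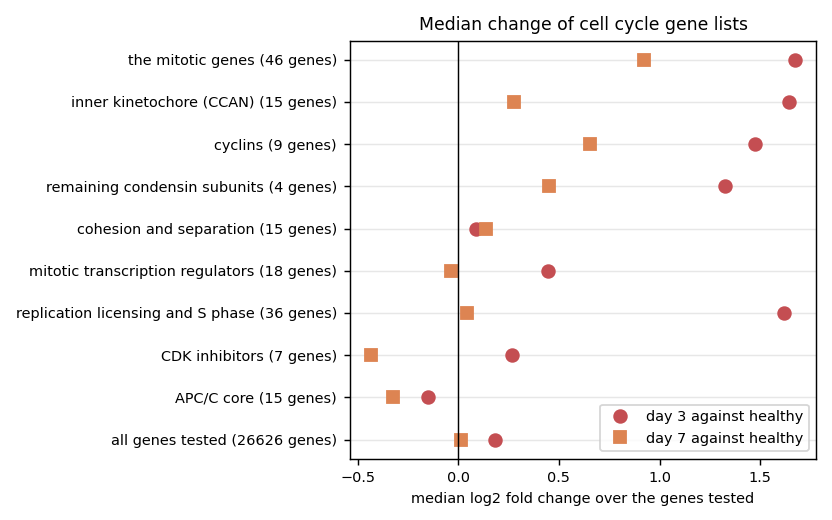
Median log2 fold change against healthy LSECs (horizontal axis) of the 46 mitotic genes, 8 other cell cycle lists and all genes tested (vertical axis, with the number of genes), at day 3 (circles) and day 7 (squares). The 46 mitotic genes and the replication genes lie close together at day 3 (1.67 and 1.62) and apart at day 7 (0.92 and 0.05). The inner kinetochore genes are at 1.64 and 0.27.

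The inner kinetochore, the complex of 15 CCAN genes that sits on CENP-A chromatin, rose in 10 genes at day 3 (median 1.64), with Cenpi at 2.55 CPM in healthy LSECs and 13.4 at day 3 and Cenpm at 2.78 and 14.5. Of 9 cyclins, 6 rose. Ccnb1 and Ccnb2, the partners of CDK1 in mitosis, had log2 fold changes of 2.07 and 1.47, and Ccne1, a cyclin of the entry into S phase, 2.44, while Ccnd2, a D type cyclin of G1, was at 659 CPM in healthy LSECs and 481 at day 3. In the cohesion and separation list, 4 of 15 rose, among them Espl1, the gene of separase (2.19), Cdca5, the gene of sororin (2.38), and Sgo1, the protector of centromeric cohesion (1.82). The 15 core subunits of the APC/C gave no call at day 3 in either direction in edgeR (3 with an unadjusted p under 0.05, as 22.2% of all genes tested, median -0.15), unlike its partners Ube2c and Cdc20. Of the remaining condensin subunits, Ncapd2 and Ncapg2 rose (2.14 and 2.16), and Ncaph2 was lower at day 7 (-0.52, adjusted p = 0.0443).

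Regulators of mitotic transcription rose in 5 of 18 cases at day 3: Foxm1 (3.40 CPM in healthy LSECs, 18.9 at day 3), Mybl2, the gene of B-MYB (2.11 and 16.2), E2f1 (5.47 and 35.8), E2f8 (1.37 and 7.28) and Rbl1 (16.7 and 31.0). The day 3 mean of Foxm1 rests largely on replicate 4, with 8.96, 6.53, 8.69 and 51.6 CPM in replicates 1 to 4. Lin52, a subunit of the DREAM complex, was the 1 regulator called lower, at days 3 and 7 (27.0 CPM when healthy, against 12.3 with adjusted p = 0.0057 and 15.8 with adjusted p = 0.0488). The other subunits and factors, Lin9, Lin37, Lin54, Rbbp4, Rbl2, E2f2, E2f3, E2f4, E2f7, Nfya, Nfyb and Nfyc, had fitted changes at day 3 from -0.67 (E2f4) to 1.71 (E2f2) and were not called at days 3 or 7. Among 7 inhibitors of cyclin-dependent kinases, 1 was called. Cdkn1c, the gene of p57, had group means of 49.3, 6.60, 10.4 and 35.4 CPM in the order healthy, day 1, day 3, day 7. It fell at day 1 (log2 fold change -2.90, adjusted p = 0.000314) and day 3 (-2.25, adjusted p = 0.000607), and rose from day 3 to day 7 (1.77, adjusted p = 0.00714). Cdkn1a, the gene of p21, was at 309 CPM in healthy LSECs and 723 at day 1 (1.22, adjusted p = 0.0773). Cdkn1b, Cdkn2a, Cdkn2b, Cdkn2c and Cdkn2d had adjusted p-values of 0.245 or more against healthy LSECs at every day.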

How the data were processed

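RNA from sorted LSECs of 14 mice was sequenced, 1 library per mouse. According to the methods, the authors trimmed the reads, aligned them with STAR to GRCm38.p6 and quantified genes with StringTie, and deposited whole-number counts for 54524 genes (54495 found in GENCODE vM21). The annotation release, the use of strand and the way whole counts were derived are not given in the sources used here. The methods name both paired-end and single-end reads.

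Genes passing edgeR's filterByExpr (minimum count 10, minimum total 15; 26626 genes) were scaled by TMM, and 1 quasi-likelihood model with 4 group means was fitted to all 14 mice (R 4.3.3, edgeR 4.0.16). P-values are two-sided and adjusted by Benjamini-Hochberg over all genes tested, with a threshold of 0.05. CPM are TMM-scaled, and log2 CPM used a prior count of 2. The total counts limit the precision of low genes, whose lowest count in a mouse was 24. The scripts were tested on simulated counts. DESeq2 1.42.0 and limma 3.58.1 (voom with quality weights) were alternatives, with other scalings, filters, thresholds and each mouse left out.

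The members and lists were chosen with earlier results of these data known. Values in every mouse were given for the member of each role with the highest mean CPM over all mice, for the 3 members with the smallest p-value at day 3 and day 7 against healthy LSECs and at day 7 against day 3, and for any member whose day 3 change ran against the median of the list. Of other lists, up to 3 genes with the smallest p-value at day 3 or day 7 were named, and CDK inhibitors and transcription regulators in full. Of the members so named whose promoter holds both elements, those of the 6 with the highest mean CPM were printed. Mad2l1, Pbk and any other gene outside this rule were named after their values were seen. The genes for CENP-A deposition and the alternative without day 3 replicates 1 and 2 were also chosen after seeing the data. Some genes of the other lists are not reported here by name.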

Additional observations from a re-analysis of the deposited data

Results flagged for a closer look

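In a group of 4 mice, a value is listed here where the gap between the highest or lowest mouse and its neighbour, divided by the range of the group, exceeded Dixon's critical value for 4 samples at the 95% level. Of 168 such groups examined (the mitotic genes, their mean score and the marker sums in healthy, day 3 and day 7 mice), 2 exceeded it, while chance alone gives about 1 in 20. Kif2c, the kinesin that removes microtubules from faulty attachments, was at 3.485 CPM in healthy replicate 3 and at 1.488 to 1.826 CPM in the other healthy mice (ratio 0.831). The hepatocyte marker sum was 9085 CPM in healthy replicate 4 and 213.5 to 405.4 CPM in the others (ratio 0.978). That mouse had the lowest mitotic score of its group.

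The groups of days after CCl4 also differed from each other in the same list. Between day 3 and day 7, Mad2l1 (log2 fold change -1.51), Cdk1 (-1.46) and Smc2 (-1.06) fell and Cenpa rose (1.07) in edgeR's test. Between day 1 and day 3, 31 of the 46 mitotic genes rose.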

How the results depend on the processing

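All 59 recomputed differences in the mean score stayed within the limit set, a move of less than the larger SD of the 2 groups. This limit is wide for day 7 against day 3, where the day 3 SD was 0.74. There the difference ran from -0.982 to -0.293 without 1 mouse, so that staying within the limit says little. Of 168 recomputed counts of called genes, 126 stayed within 1.5 times the count. With library size alone as scaling, 1 gene was called higher at day 7, and the share of higher calls among all calls moved from 64.2% to 75.1% at day 3 and from 68.8% to 86.8% at day 7 (75.8% with RLE scaling). With DESeq2, 11 were lower at day 1 (3.53% of all genes that it tested), 8 higher at day 7 (3.78%) and 7 lower at day 7 than at day 3 (2.33%). DESeq2 also called 37 higher at day 3 (5.2%) and 44 higher from day 1 to day 3 (3.73%). With limma-voom, 14 were lower at day 1 (6.73% of all genes tested) and 17 rose at day 3 (15.9%). At day 7 it called 3 higher and 1 lower, below its shares of all genes tested (13.5% and 13%). The 6 that it called lower at day 7 than at day 3 were near its share (14.5%). Without the filter 19 rose at day 3 (1.64% of all genes tested) and 1 was lower from day 3 to day 7 (0.258%). With 10 counts required in every mouse, 5 were lower at day 1 (3.59% of all genes tested) and 2 higher at day 7 (5.33%). With only the groups compared in the model, 5 were lower at day 1 (5.02% of all genes tested) and 12 higher at day 3 (2.93%). In these models 5 were higher at day 7 (6.72%) and 4 higher from day 1 to day 3 (0.581%). From day 3 to day 7, 0 were higher and 0 lower (0.00451% and 0%). At adjusted p under 0.01, 1 was lower at day 1 (0.481% of all genes tested), 7 were higher at day 3 (1.32%) and 0 higher at day 7 (0.451%). At that threshold 6 were higher from day 1 to day 3 (0.203%). From day 3 to day 7, 0 were higher and 0 lower (0.0338% and 0.131%). Without day 3 replicates 1 and 2, which had the lower scores of their group, 42 rose at day 3 (5.37% of all genes tested). In that fit 6 were lower at day 7 than at day 3 (1.92%).

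Without 1 mouse, 12 to 35 rose at day 3, where 2.38% to 6.52% of all genes tested were called higher. The count was 12 without healthy replicate 4, 14 without healthy replicate 1 or 2, and 15 without day 3 replicate 3. From day 1 to day 3, 19 to 40 rose without 1 day 3 mouse (0.831% to 1.85%), with 19 without replicate 3. Without day 1 replicate 1 or 2, the median there was 3.35 or 2.495, and fewer genes were called. At day 1, 2 to 3 fell without 1 healthy mouse (1.1% to 1.3%). At day 7, 0 to 1 rose (0.614% to 3.25%). From day 3 to day 7, 0 to 4 fell (0.0417% to 4.56%) and 0 to 1 rose (0.0568% to 1.69%, 0 without day 7 replicate 3).

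Replicate numbers recur across groups. Deviations of same-numbered mice from their group means had r of -0.232 to 0.096 (18 pairs), against -0.256 to 0.236 for other pairs. As such deviations are forced to sum to 0 in each small group, they cannot tell whether same-numbered mice shared a batch. With a replicate block 20 rose and 1 fell at day 3 (3.18% and 2.02% of all genes tested), and 18 rose from day 1 to day 3 (0.695%). From day 3 to day 7, 1 rose and 2 fell (0.169% and 0.747%). The counts at day 1 (0 and 3) and day 7 (0 and 0) did not change. There 1.35% and 0.879% of all genes tested were called at day 1, and 1.15% and 0.488% at day 7.

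Of the log2 fold changes of the 13 genes given in every mouse, 891 were the same in direction and call, 81 lost and 28 gained a call, and 27 turned in sign. Smc2 at day 7 (-0.001) was 0.045 with RLE, 0.083 with library size, 0.036 with DESeq2, 0.10 with the stricter filter, 0.010 with 2 groups, 0.013 with the block and -0.097 to 0.096 without 1 mouse. Bub3 from day 1 to day 3 (-0.046) was 0.003 with library size, 0.136 with voom, 0.084 with the block and -0.241 to 0.066 without 1 mouse, and at day 3 -0.028 to 0.282 without 1 mouse and -0.145 without day 3 replicates 1 and 2. With voom, Incenp was -0.362 at day 3 (0.758 in edgeR), -0.055 at day 7 and 0.307 between them (-0.652), Smc4 -0.009 at day 7, and Racgap1 and Mki67 0.123 and 0.02 from day 3 to day 7 (-0.689 and -0.715). Without the filter, Incenp and Smc4 were -0.035 and -0.044 at day 7, and without 1 mouse -0.013 to 0.281 and -0.001 to 0.178. The causes were not tested.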

Other observations

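After the fall of Cenpa was seen, genes were looked up whose proteins help to place CENP-A into chromatin, and 3 are given here: Hjurp, its chaperone, and Mis18a and Oip5, of the licensing complex. Hjurp was at 98.9, 80.5, 76.6 and 92.2 CPM in the healthy mice, 56.1 and 71.9 at day 1, 52.6, 91.7, 116.6 and 164.6 at day 3, and 75.0, 85.7, 75.7 and 70.8 at day 7. Its day 3 mice lay on both sides of the healthy range, and no comparison of Hjurp was called. Oip5 was called higher at day 3 (log2 fold change 1.77, adjusted p = 0.0201, edgeR), and it shares exon sequence with Nusap1. Mis18a averaged 49.5 CPM in healthy mice, 47.8 in day 3 mice and 29.8 in day 7 mice, and the last was called lower (-0.73, adjusted p = 0.0483). None of these 3 was called lower at day 3, as Cenpa was.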
